A study of Homo sapiens with 16 samples.

Results

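The genes described here make and inactivate 2 families of lipid mediators, the leukotrienes and the prostaglandins. They are ALOX5, ALOX5AP, LTA4H, LTC4S, PTGS1, PTGS2, TBXAS1, PTGES and HPGD, 9 of the 60603 genes in the deposited count table, and were chosen by symbol alone. RNA was sequenced from SKNO-1 and U-937, 2 human acute myeloid leukaemia lines. SKNO-1 carries the RUNX1-RUNX1T1 fusion gene and was grown with GM-CSF at 10 ng/mL. U-937 is a monocyte-like line and was grown without it, so line and medium cannot be told apart. Treatment lasted 24 h and was DMSO (the solvent), ATRA, Corin or ATRA plus Corin, each agent at 0.1 µM, with 2 libraries in each of the 8 groups. ATRA, all-trans retinoic acid, is the natural ligand of the retinoic acid receptors, and Corin is a synthetic inhibitor of the CoREST complex, which holds histone deacetylase and LSD1 demethylase activity. The study asked how both agents act together on transcription. Each line stands for a single culture model, and the labels do not say whether the 2 libraries of a group came from separate cultures, so p-values measure only the spread between these libraries, which may be technical.

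Both families start from arachidonic acid that phospholipases free from membranes. In the leukotriene arm, 5-lipoxygenase (ALOX5), helped by its membrane partner FLAP (ALOX5AP), makes leukotriene A4, which LTA4H turns into the neutrophil attractant leukotriene B4 or LTC4S joins to glutathione. In the prostanoid arm, the cyclooxygenases PTGS1 and PTGS2 make prostaglandin H2, which PTGES turns into prostaglandin E2 and TBXAS1 into thromboxane A2, and HPGD starts the breakdown of prostaglandins. Monocytes, macrophages and granulocytes are main sources of leukotrienes in blood.

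Levels within a gene are given as CPM, each count scaled to a common library total after TMM normalization, and levels between genes as the authors' TPM, which also divides by transcript length. A gene is called changed where edgeR's quasi-likelihood test gave a Benjamini-Hochberg adjusted p under 0.05 over all genes tested. Fold changes are edgeR's fitted ratios, which its prior count shrinks, most where a group is near 0 counts. The SE, on the log2 scale, is the unshrunken log2 change divided by the root of the test's F. It understates the error where a group is near 0 counts. A permutation test of a single gene cannot reach that 0.05 threshold with 2 libraries against 2. Library totals were 32.773 to 37.817 M counts in SKNO-1 and 28.415 to 37.563 M in U-937. The fusion partner RUNX1T1 stood at 92.0 to 125 CPM in SKNO-1 under DMSO and at 0 to 0.0313 CPM in U-937, and HOXA9 and HOXA10, summing to 135 to 148 CPM in U-937 under DMSO, were at 0 in SKNO-1. The 2 DMSO libraries of SKNO-1 stand apart: the SD of their log2 difference over 9500 genes was 0.356, against 0.107 to 0.199 in the other groups, and that difference followed GC content (Pearson's r = 0.784 across genes). All 12 calls of these genes against DMSO in SKNO-1 held when either of those libraries was left out. In bulk RNA, fewer cells of a type and less RNA per cell cannot be told apart.

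In SKNO-1, ALOX5AP rose under every treatment, ALOX5 fell with ATRA and rose with Corin, and LTA4H and PTGS1 rose wherever Corin was present. The low-count filter kept 17479 genes and 6 of the 9, leaving out LTC4S, PTGES and HPGD. With ATRA, 1 of the 6 rose (2.96% of all genes tested) and 2 fell (3.79% of all genes). With Corin, 4 rose and 0 fell, against 20.5% and 17.3% of all genes. With both agents, 4 rose and 1 fell against DMSO (24.7% and 22.0%). With both agents rather than ATRA alone, 4 rose and 0 fell (23.0% and 21.8%). With both agents rather than Corin alone, 1 rose and 2 fell (4.82% and 5.6%). DESeq2 also called 0 genes wherever edgeR's count of the set is 0 here or in the comparisons that follow. At an unadjusted p under 0.05 edgeR's count was 0 there too, except for 1 gene with Corin in SKNO-1, PTGS2, at a log2 difference of -0.52 (SE 0.21, adjusted p = 0.0889).

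In U-937, ALOX5AP, PTGS1, PTGES and TBXAS1 rose with ATRA and with the combination, and LTA4H rose with Corin and with the combination. The low-count filter kept 17717 genes and 7 of the 9 there, leaving out ALOX5 and HPGD. PTGES and LTC4S passed the filter only through libraries with ATRA, where their counts are highest, so their places in the counts that follow were set by that filter. With ATRA, 4 of the 7 rose and 0 fell, against 21.7% and 20.1% of all genes. With Corin, 3 rose and 0 fell (8.55% and 4.4%). With both agents, 7 rose and 0 fell against DMSO (33.1% and 32.2%). With both agents rather than ATRA, 5 rose and 0 fell (22.5% and 24.9%), and rather than Corin, 7 rose and 0 fell (29.9% and 30.6%). DESeq2 called 6 of the 7 with both agents against DMSO, the other being LTC4S (adjusted p = 0.0972).

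**Figure D1:**
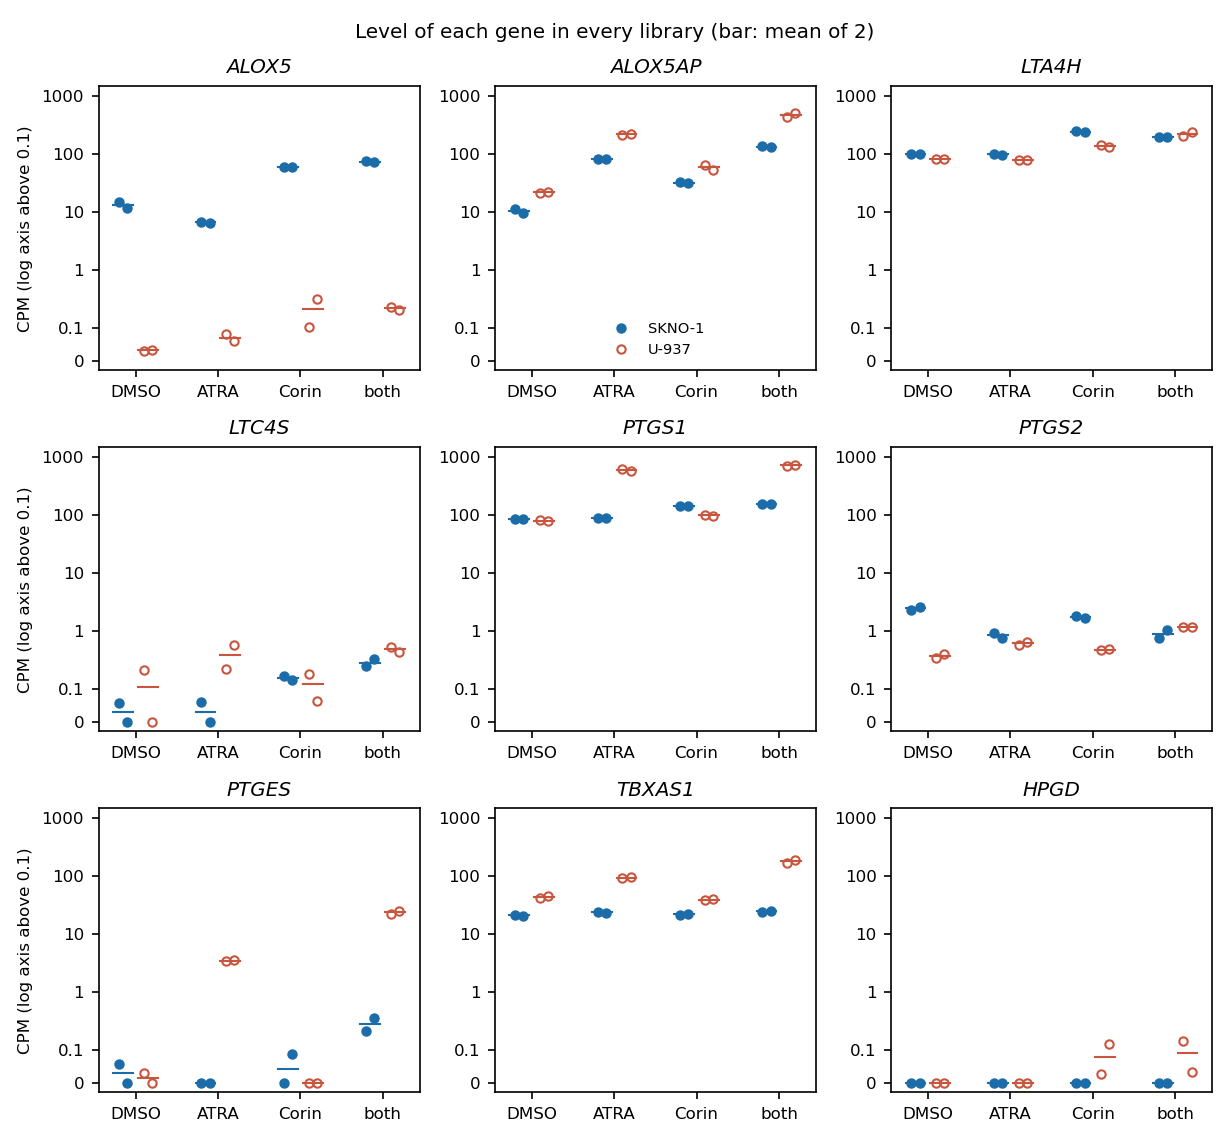
CPM of each of the 9 genes in all 16 libraries, on an axis that is logarithmic above 0.1 CPM, with filled points for SKNO-1, open points for U-937 and a line at the mean of the 2 libraries. ALOX5 is at 6.67 to 75.3 CPM in SKNO-1 and under 1 CPM in U-937, while PTGES reaches 22.4 and 25.2 CPM in U-937 with both agents and stays under 1 CPM in SKNO-1.

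**Figure D2:**
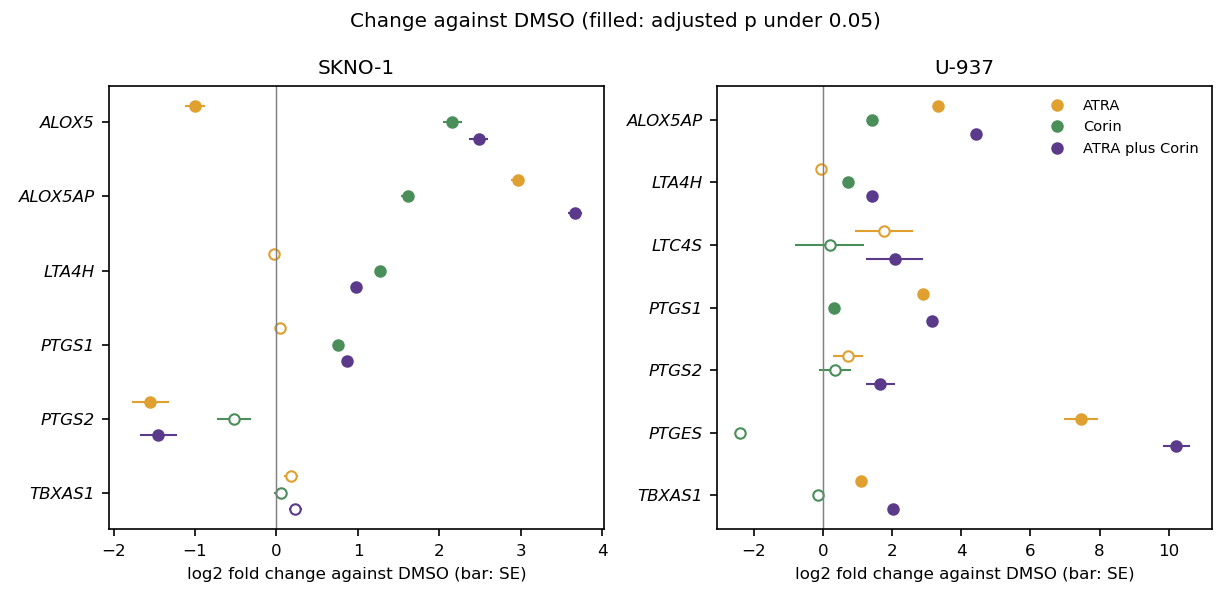
Log2 fold change against DMSO of the genes tested in each line, with the SE as a bar and filled points for an adjusted p under 0.05. The PTGES point for Corin has no bar, because its libraries were at 0 counts.

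ALOX5, the 5-lipoxygenase that opens the leukotriene arm, lies on chromosome 10 from 45374176 to 45446119 (hg38, plus strand). In SKNO-1 its levels were 15.1 and 11.7 CPM with DMSO, 6.75 and 6.67 with ATRA, 59.6 and 60.3 with Corin, and 75.3 and 74.2 with both. The 4 groups did not overlap. ATRA lowered it 2.0-fold (log2 -1.0, SE 0.121, adjusted p = 0.00202), Corin raised it 4.47-fold (log2 2.16, SE 0.113, adjusted p = 1.28e-05), and both agents raised it 5.57-fold (log2 2.48, SE 0.114, adjusted p = 4.03e-06). Against ATRA alone, the combination was 11.1-fold higher (log2 3.48, SE 0.122, adjusted p = 1.59e-06). Against Corin alone it was 0.32 higher on the log2 scale, with an adjusted p of 0.0932. That difference was called with only the libraries compared (adjusted p = 2.69e-06), without the low-count filter (0.0334) and without either DMSO library (1.97e-05 and 2.2e-05). On the TPM scale the order was the other way, 27.6 ± 0.544 with both and 31.6 ± 1.64 with Corin (mean ± SD, n = 2). With only the DMSO and ATRA libraries fitted, the fall with ATRA had an adjusted p of 0.0754. U-937 gave almost no ALOX5 reads: 1 and 1 counts with DMSO, 3 and 2 with ATRA, 4 and 10 with Corin, and 8 and 6 with both. The ratio of both agents to DMSO in U-937 was 6.83 (95% exact conditional interval 1.57 to 61.9, counting error only). In the fit of all 16 libraries, the U-937 DMSO level was 401-fold below that of SKNO-1 (log2 -8.65, SE 0.317, adjusted p = 9.87e-15). That size rests on 1 count in each U-937 DMSO library, so it is not precise and its SE is too small.

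ALOX5AP, the membrane protein that presents arachidonic acid to 5-lipoxygenase, lies on chromosome 13 from 30713478 to 30764426 (plus strand) and was the gene of the set that rose under every treatment in both lines. In SKNO-1 it stood at 11.3 and 9.87 CPM with DMSO, 81.7 and 83.4 with ATRA, 33.0 and 31.9 with Corin, and 137 and 132 with both. In U-937 the levels were 21.7 and 22.5, then 218 and 228, 66.5 and 52.7, and 435 and 518 CPM in the same order of treatments. No 2 groups of a line overlapped, and in both lines the order was DMSO, Corin, ATRA, then both agents. ATRA raised it 7.79-fold in SKNO-1 (log2 2.96, SE 0.083, adjusted p = 2.29e-06) and 10.1-fold in U-937 (log2 3.33, SE 0.126, adjusted p = 5.08e-16). The combination raised it 12.7-fold in SKNO-1 (log2 3.66, SE 0.0846, adjusted p = 2.64e-07) and 21.5-fold in U-937 (log2 4.43, SE 0.131, adjusted p = 1.09e-18). Corin alone gave 3.06-fold in SKNO-1 and 2.69-fold in U-937 (adjusted p = 1.08e-05 and 4.87e-09).

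The promoter of ALOX5AP is shown because this gene responded to every treatment in both lines. Below are the 250 bases before the RefSeq start of the gene (GRCh38.p14, chr13:30713235-30713484, plus strand), 5′ to 3′. Capitals mark matches, on either strand, to the retinoid receptor half-site AGGTCA and to GAGGAAGT, a binding sequence of the myeloid factor PU.1.
ALOX5AP: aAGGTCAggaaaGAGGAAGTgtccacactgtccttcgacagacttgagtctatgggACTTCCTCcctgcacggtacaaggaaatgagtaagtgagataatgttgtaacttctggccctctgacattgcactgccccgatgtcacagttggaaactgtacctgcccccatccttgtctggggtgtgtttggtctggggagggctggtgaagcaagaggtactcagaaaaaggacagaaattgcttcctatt
The half-site lies at the far end of the window. The GAGGAAGT matches lie 238 to 231 bases before the start and, on the other strand, 194 to 187 bases before it. Over the 35116 promoter windows of the same length, 12.1% hold AGGTCA and 2.17% hold GAGGAAGT. A match is a run of letters and no measure of binding.

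LTA4H, the hydrolase that makes leukotriene B4, lies on chromosome 12 from 96000753 to 96043520 (minus strand) and rose with Corin in both lines. In SKNO-1 the levels were 101 and 102 CPM with DMSO, 101 and 97.8 with ATRA, 251 and 240 with Corin, and 202 and 199 with both. In U-937 they were 82.5 and 83.6, 79.1 and 80.5, 144 and 131, and 203 and 245 CPM. With Corin, alone or with ATRA, every level lay above those without it. ATRA alone gave a log2 difference of -0.03 (SE 0.0544, adjusted p = 0.854) in SKNO-1 and of -0.06 (SE 0.103, adjusted p = 0.683) in U-937. Corin raised LTA4H 2.42-fold in SKNO-1 (log2 1.27, SE 0.0548, adjusted p = 5.02e-06) and 1.65-fold in U-937 (log2 0.72, SE 0.103, adjusted p = 1.89e-05). Adding ATRA to Corin moved the gene in opposite directions: it fell in SKNO-1 (log2 -0.29, SE 0.0538, adjusted p = 0.0147) and rose 1.63-fold in U-937 (log2 0.71, SE 0.102, adjusted p = 2.2e-06). The fall in SKNO-1 lost its call once a trend with GC content was removed (log2 -0.12, adjusted p = 0.275) and when any 1 of the 4 libraries compared was left out (adjusted p = 0.0812 to 0.161).

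LTC4S, the synthase of the cysteinyl leukotrienes, lies on chromosome 5 from 179793980 to 179796647 (plus strand) and was near the limit of detection. SKNO-1 gave 2 and 0 counts with DMSO, 2 and 0 with ATRA, 6 and 5 with Corin, and 8 and 11 with both, and was not tested. The SKNO-1 ratio of both agents to DMSO was 10.5 (95% exact conditional interval 2.54 to 93.3). U-937 gave 7 and 0 counts with DMSO, 8 and 19 with ATRA, 7 and 2 with Corin, and 18 and 13 with both. There the combination was called higher than DMSO (log2 2.08, SE 0.826, adjusted p = 0.0305) and than Corin (log2 1.88, SE 0.787, adjusted p = 0.0425). Both calls were lost in other fits, among them DESeq2 (adjusted p = 0.0972 and 0.132) and scaling by library totals (0.0698 and 0.0907). Without U-937 DMSO replicate 2, the library at 0, the first was log2 1.14 with an adjusted p of 0.239, and without replicate 1 of the combination the adjusted p was 0.0848. The second was lost without either library of the combination (adjusted p = 0.117 and 0.0558) or without Corin replicate 2 (0.214). The authors' deposited table does not call the first.

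PTGS1, the constitutive cyclooxygenase, lies on chromosome 9 from 122370530 to 122395703 (plus strand) and was the more abundant cyclooxygenase in both lines. In U-937 it stood at 82.4 and 78.8 CPM with DMSO, 625 and 574 with ATRA, 102 and 99.1 with Corin, and 711 and 733 with both. In SKNO-1 it stood at 87.7 and 84.9, 88.4 and 88.7, 147 and 145, and 158 and 157 CPM. In U-937 the levels with ATRA lay above every level without it, and in SKNO-1 the levels with Corin lay above every level without it. ATRA raised PTGS1 7.44-fold in U-937 (log2 2.89, SE 0.109, adjusted p = 4.78e-16), and in SKNO-1 the difference was log2 0.04 (SE 0.0529, adjusted p = 0.811). Corin raised it 1.69-fold in SKNO-1 (log2 0.76, SE 0.0529, adjusted p = 4.35e-05). In U-937 Corin gave 1.25-fold (log2 0.32, SE 0.103, adjusted p = 0.0416), a call lost when any 1 of the 4 libraries compared, or either ATRA library, was left out (adjusted p = 0.0811 to 0.272). The rise from ATRA to both agents in U-937 was 1.2-fold (adjusted p = 0.0306), was lost without either ATRA library (0.0843 and 0.292), without replicate 2 of the combination (0.103), or without either DMSO library (0.0543 each), and on the TPM scale had the other direction, 133 ± 15.3 with ATRA and 124 ± 8.36 with both.

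PTGS2, the inducible cyclooxygenase, lies on chromosome 1 from 186671791 to 186680922 (minus strand), overlaps the antisense gene PACERR at its 5′ end, and was low throughout. Strand use in counting is not stated, so reads of both cannot be told apart. SKNO-1 levels were 2.37 and 2.63 CPM with DMSO, 0.93 and 0.784 with ATRA, 1.82 and 1.67 with Corin, and 0.779 and 1.05 with both. ATRA lowered it 2.92-fold there (log2 -1.55, SE 0.226, adjusted p = 0.00487), and the combination was 2.73-fold below DMSO (log2 -1.45, SE 0.226, adjusted p = 0.00137). The groups with ATRA did not overlap those without it. The fall with ATRA had an adjusted p of 0.0543 without ATRA replicate 2, and 0.0586 with only the DMSO and ATRA libraries fitted. The fall from Corin to both agents (log2 -0.93, SE 0.232, adjusted p = 0.0428) was lost without any 1 library of Corin, ATRA or the combination (adjusted p = 0.0805 to 0.245). U-937 levels were 0.344 and 0.407 CPM with DMSO, 0.579 and 0.668 with ATRA, 0.479 and 0.49 with Corin, and 1.18 and 1.2 with both. In U-937 the combination was 3.16-fold above DMSO (log2 1.66, SE 0.42, adjusted p = 0.0013) and 2.45-fold above Corin (log2 1.29, SE 0.4, adjusted p = 0.00725), the latter not called by DESeq2 (adjusted p = 0.054). With ATRA alone it was 0.73 higher on the log2 scale (SE 0.442, adjusted p = 0.196).

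PTGES, the inducible prostaglandin E synthase, lies on chromosome 9 from 129738331 to 129753042 (minus strand) and rose with ATRA in U-937 from next to no reads. The U-937 counts were 1 and 0 with DMSO, 126 and 118 with ATRA, 0 and 0 with Corin, and 756 and 733 with both. These are 3.47 and 3.58 CPM with ATRA and 22.4 and 25.2 with both. Libraries with ATRA held at least 118 counts each and libraries without it at most 1, so PTGES passed the low-count filter only through the former. The ratio of ATRA to DMSO was 216 (95% exact conditional interval 38.5 to 8590), and that of both agents to DMSO was 1450 (260 to 57400). Against Corin, with 0 counts in both libraries, the combination was 538-fold higher when 3 counts over the group were taken as the floor. The lower limit of the 95% exact conditional interval was 437. edgeR called all 3 of these rises (adjusted p = 1.13e-11, 1.96e-16 and 2.21e-16), and adding Corin to ATRA raised PTGES 6.73-fold (log2 2.75, SE 0.183, adjusted p = 1.82e-11). In SKNO-1 the counts were 2 and 0 with DMSO, 0 and 0 with ATRA, 0 and 3 with Corin, and 7 and 12 with both, so the gene was not tested there. The SKNO-1 ratio of both agents to DMSO was 10.5 (2.54 to 93.3).

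TBXAS1, the thromboxane synthase, lies on chromosome 7 from 139777051 to 140020325 (plus strand). Its 5′ end overlaps HIPK2 on the other strand, with the same limit on telling their reads apart. U-937 levels were 41.9 and 45.7 CPM with DMSO, 93.8 and 96.6 with ATRA, 39.4 and 40.1 with Corin, and 171 and 190 with both. The 2 groups with ATRA lay above the 2 without it, and the combination lay above ATRA alone. ATRA raised it 2.17-fold (log2 1.12, SE 0.0991, adjusted p = 2.49e-09) and both agents 4.12-fold (log2 2.04, SE 0.101, adjusted p = 1.23e-14), while Corin alone gave log2 -0.14 (SE 0.0999, adjusted p = 0.406). In SKNO-1 all 8 libraries lay between 21.0 and 25.6 CPM. The largest SKNO-1 difference from DMSO, with both agents, was log2 0.23 (SE 0.0822, adjusted p = 0.0512), and it passed the threshold without DMSO replicate 1 (adjusted p = 0.0257), with the GC trend removed (0.0254) and with that and the replicate block (0.0351).

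HPGD, the dehydrogenase that starts prostaglandin breakdown, lies on chromosome 4 from 174490175 to 174523154 (minus strand) and was not detectable at this depth in SKNO-1, with 0 counts in all 8 libraries. A count of 0 allows up to 3 counts. In U-937 it had 0 counts in the DMSO and ATRA libraries, 1 and 4 with Corin, and 5 and 1 with both. It passed no filter and was not tested.

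The promoters of PTGES, PTGS1 and TBXAS1 are shown because these 3 genes of the prostanoid arm rose together with ATRA in U-937. Each is the 250 bases before a RefSeq start (GRCh38.p14), 5′ to 3′, at chr9:129753043-129753292 (minus strand), chr9:122370283-122370532 (plus strand, the first of the PTGS1 starts) and chr7:139829014-139829263 (plus strand, a start inside the annotated gene). Capitals mark the GC box GGGCGG, the TATA box TATAAA and GAGGAAGT, on either strand.
PTGES: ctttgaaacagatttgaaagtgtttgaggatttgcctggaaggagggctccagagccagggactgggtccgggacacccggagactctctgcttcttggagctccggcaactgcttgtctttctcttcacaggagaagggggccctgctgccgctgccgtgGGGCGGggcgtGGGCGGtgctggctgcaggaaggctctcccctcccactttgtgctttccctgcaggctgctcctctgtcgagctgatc
PTGS1: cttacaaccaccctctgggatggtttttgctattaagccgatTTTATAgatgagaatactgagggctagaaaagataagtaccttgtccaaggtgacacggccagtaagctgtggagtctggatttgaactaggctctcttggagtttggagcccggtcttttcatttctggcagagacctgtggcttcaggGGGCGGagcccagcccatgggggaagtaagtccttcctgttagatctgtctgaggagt
TBXAS1: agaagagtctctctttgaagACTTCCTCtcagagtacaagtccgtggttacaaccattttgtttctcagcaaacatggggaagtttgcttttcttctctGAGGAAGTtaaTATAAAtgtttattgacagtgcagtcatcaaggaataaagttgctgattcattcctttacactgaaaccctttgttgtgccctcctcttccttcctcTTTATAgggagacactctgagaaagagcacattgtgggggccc
PTGES held 2 GC boxes, PTGS1 1 GC box and 1 TATA box, and TBXAS1 2 TATA boxes and 2 GAGGAAGT matches, as many of the last as ALOX5AP. None of these 3 windows held AGGTCA. Of all windows 42.6% hold GGGCGG and 10.7% hold TATAAA. The table had an entry for 8 of the 9 genes.

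The log2 change with both agents was next set against the ATRA and Corin changes added together. In SKNO-1, 1 of 6 genes lay above the sum and 1 below it, against 0.315% and 0.149% of all genes. ALOX5 lay above (log2 1.31, SE 0.16, adjusted p = 0.0215): ATRA lowered it on its own, and with Corin present its CPM with ATRA was not lower, though its TPM was. ALOX5AP lay below (log2 -0.91, SE 0.11, adjusted p = 0.0206). Both calls were lost when any 1 library of ATRA, Corin or the combination was left out, with adjusted p of 0.146 to 0.19 for ALOX5 and 0.16 to 0.204 for ALOX5AP, while the values stayed at 1.18 to 1.53 and -0.96 to -0.77 over all left-out libraries. In U-937, 2 of 7 lay above the sum and 0 below, against 8.11% and 15.3% of all genes. These were TBXAS1 (log2 1.06, SE 0.139, adjusted p = 2.62e-06) and LTA4H (log2 0.76, SE 0.145, adjusted p = 0.000325), 2 genes for which the change with 1 of the agents alone, Corin for TBXAS1 and ATRA for LTA4H, was not called. ALOX5AP in U-937 was not called (log2 -0.34, SE 0.163, adjusted p = 0.152), but was called below the sum with library totals (log2 -0.39, adjusted p = 0.0323). With 1 library left out, that departure was -0.5 to -0.16. For PTGES the sum rests on groups at 0 or 1 count, so its departure (adjusted p = 0.123) could not be measured.

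**Figure D3:**
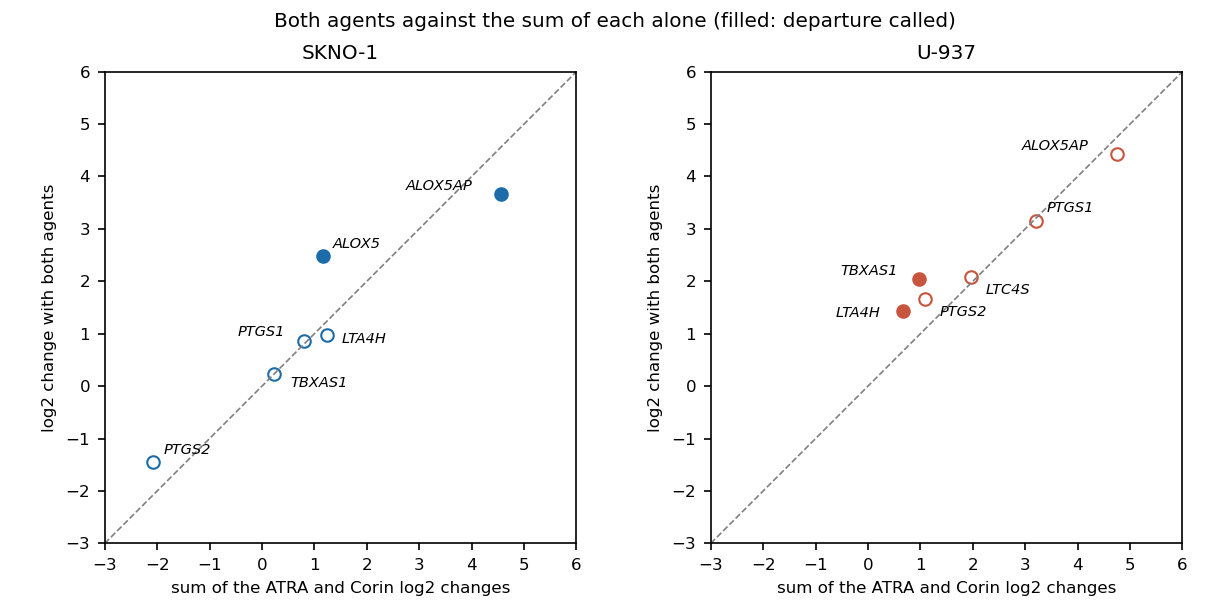
Log2 change with both agents against the sum of the ATRA and Corin changes, for the genes tested in each line except PTGES, with the line of equality dashed. ALOX5 (SKNO-1), TBXAS1 and LTA4H (U-937) lie above the line and ALOX5AP (SKNO-1) below it, as filled points with an adjusted p under 0.05.

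Levels and responses were then compared between the lines. In the fit of all 16 libraries 19872 genes and 8 of the 9 were tested, HPGD being left out. Under DMSO, 2 of the 8 were higher in U-937 and 4 lower, against 31.7% and 33.1% of all genes. TBXAS1 (log2 0.92, SE 0.09, adjusted p = 3.37e-08) and ALOX5AP (log2 0.94, SE 0.118, adjusted p = 1e-06) were higher, and PTGS2 was 7.23-fold lower (log2 -2.85, SE 0.298, adjusted p = 7.63e-08). LTA4H was lower by a smaller step (log2 -0.42, SE 0.0906, adjusted p = 0.00049), and so was PTGS1 (log2 -0.22, adjusted p = 0.0171), whose call was lost in many other fits, among them every one without a DMSO library of either line (adjusted p = 0.0512 to 0.178). The response to ATRA, as a signed log2 change, was higher in U-937 for 4 of the 8 and lower for 0. Of all genes, 10.6% were higher and 8.8% lower (2100 and 1749, or 1725 and 2358 when libraries were scaled by their totals only). Among the 4, PTGS2 fell in SKNO-1 (log2 -1.55) and was not called in U-937 (0.73). PTGS1 differed by log2 2.9 (SE 0.112, adjusted p = 3.66e-12), PTGS2 by 2.31 (SE 0.428, adjusted p = 0.000601) and TBXAS1 by 0.98 (SE 0.126, adjusted p = 1.45e-05). PTGES was called too (adjusted p = 0.0061), with no reliable size, since both SKNO-1 ATRA libraries were at 0, and the call was lost without SKNO-1 DMSO replicate 1. PTGES passed the filter of this fit only through U-937 libraries with ATRA, so its place in the count was set by that filter. For ALOX5AP the ATRA responses differed by 0.41 (SE 0.156, adjusted p = 0.0759), and this was called with the GC trend removed (0.43, adjusted p = 0.0384) and without the low-count filter (0.4, adjusted p = 0.0467).

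With Corin, the signed response was higher in U-937 for 0 of the 8 and lower for 2, against 5.28% and 7.49% of all genes. The 2 were LTA4H (log2 -0.55, SE 0.127, adjusted p = 0.0069) and PTGS1 (log2 -0.44, SE 0.11, adjusted p = 0.0115); the PTGS1 call was lost without either SKNO-1 Corin library (adjusted p = 0.0645 and 0.0507) or U-937 DMSO replicate 1 (0.0626). With both agents, the signed response was higher in U-937 for 6 of the 8 and lower for 0, against 17.9% and 22.7% of all genes. Among the 6, PTGS2 fell in SKNO-1 (log2 -1.45) and rose in U-937 (1.66). PTGS2 differed by log2 3.15 (SE 0.411, adjusted p = 4.1e-06), PTGS1 by 2.34 (SE 0.111, adjusted p = 9.21e-12) and TBXAS1 by 1.86 (SE 0.126, adjusted p = 9.27e-10). ALOX5AP (0.81, SE 0.156, adjusted p = 0.000337) and LTA4H (0.49, SE 0.127, adjusted p = 0.00398) differed by less than 1. PTGES was called (adjusted p = 0.00962), again not without SKNO-1 DMSO replicate 1, and its place in the count was again set by the filter.

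Per transcript length, LTA4H or ALOX5AP led the set in each of the 8 groups. With DMSO, LTA4H was the highest in both lines, at 42.0 ± 12.3 TPM in SKNO-1 and 40.0 ± 1.97 in U-937 (mean ± SD, n = 2 throughout). In SKNO-1 with DMSO it was followed by PTGS1 (20.6 ± 4.29), TBXAS1 (13.9 ± 3.04), ALOX5AP (11.3 ± 1.89) and ALOX5 (6.13 ± 0.948), and the neighbours TBXAS1 and ALOX5AP did not differ beyond their spread. With ATRA, ALOX5AP led in both lines, at 87.2 ± 2.48 TPM in SKNO-1 and 234 ± 10.7 in U-937. With both agents it reached 117 ± 5.83 and 418 ± 19.1 TPM. With Corin, LTA4H still led in SKNO-1 (103 ± 4.14 TPM, against 36.0 ± 0.728 for ALOX5AP), and ALOX5AP led in U-937 (72.1 ± 4.28, against 64.3 ± 1.81 for LTA4H). In SKNO-1 the TPM ratio of ALOX5AP to ALOX5 was 1.82 and 1.86 with DMSO, 25.7 and 31.4 with ATRA, 1.2 and 1.08 with Corin, and 4.17 and 4.35 with both. The ratio was highest with ATRA and lowest with Corin. In U-937 with ATRA, PTGS1 came second at 133 ± 15.3 TPM, above TBXAS1 at 53.7 ± 0.552, whereas with DMSO TBXAS1 (31.7 ± 2.11) was above PTGS1 (19.9 ± 0.431). PTGES reached 9.89 ± 0.0636 TPM with both agents in U-937, and PTGS2 did not exceed a group mean of 0.65 TPM in either line.

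Other genes of the pathway were taken from 6 lists chosen for function. The shares of all genes called in the same comparisons stand beside these counts. In U-937, 21.7%, 8.55% and 33.1% of all genes rose with ATRA, Corin and both agents, and 20.1%, 4.4% and 32.2% fell. In SKNO-1, 2.96%, 20.5% and 24.7% rose, and 3.79%, 17.3% and 22.0% fell. A list gene that passed the low-count filter only through a treated group is in its list's count. Of the genes that store or free arachidonic acid, 4 of 10 tested in U-937 rose with ATRA, 3 with Corin and 6 with both, and 0 fell by edgeR, at an unadjusted p under 0.05 or by DESeq2. Their median log2 change was 0.18 with ATRA, 0.15 with Corin and 0.96 with both agents, beside 0.02, 0.0 and 0.03 for all genes. In SKNO-1, 1 of 11 rose and 2 fell with ATRA, 1 rose and 2 fell with Corin, and 2 rose and 2 fell with both. MGLL, a lipase that frees arachidonic acid from a monoacylglycerol, fell in SKNO-1 from 20.5 ± 3.99 to 9.44 ± 0.0538 CPM with ATRA (adjusted p = 0.00245) and rose in U-937 from 50.0 ± 2.97 to a mean of 239 (log2 2.25, SE 0.104, adjusted p = 1.8e-14). The ATRA responses of MGLL differed between the lines by log2 3.41 (SE 0.15, adjusted p = 1.47e-11). PLA2G4A, the cytosolic phospholipase A2, fell in SKNO-1 with both agents from 41.6 ± 2.66 to 19.1 ± 0.945 CPM (log2 -1.12, SE 0.0835, adjusted p = 3.79e-05).

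Of the other lipoxygenases and the 5-lipoxygenase partner COTL1, 1 gene was tested in SKNO-1 and 2 in U-937. COTL1 rose in U-937 with both agents from 69.6 ± 3.39 to 98.7 ± 3.57 CPM (adjusted p = 5.74e-05). Among genes that conjugate or break down leukotrienes, 4 of 7 rose and 1 fell with ATRA in U-937, 1 rose with Corin, and 5 rose and 1 fell with both. In SKNO-1 edgeR called 0 of 6 with ATRA (2 at an unadjusted p under 0.05, 0 by DESeq2), 3 rose and 2 fell with Corin, and 4 rose and 2 fell with both. CYP4F3, which inactivates leukotriene B4, went in U-937 from 0.21 ± 0.0572 CPM (13 counts over both DMSO libraries) to 35.1 ± 0.85 with ATRA (log2 7.35, SE 0.205, adjusted p = 1.94e-18) and to 46.2 ± 1.85 with both agents. Its close paralogs make the split of reads within the CYP4F family uncertain. DPEP2, a dipeptidase of the cysteinyl leukotrienes, rose in U-937 from 2.83 ± 0.208 to 36.5 ± 1.04 CPM with both agents (log2 3.69, SE 0.163, adjusted p = 1.6e-15) and in SKNO-1 from 0.422 ± 0.262 to 3.06 ± 0.0909 (log2 2.86, SE 0.362, adjusted p = 0.000481).

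Among the other prostanoid synthases, 1 of 6 rose and 4 fell with ATRA in U-937, and 2 rose and 4 fell with both. With Corin edgeR called 0, at an unadjusted p under 0.05 too, and so did DESeq2. PTGES2, a second prostaglandin E synthase, fell there with both agents from 10.7 ± 1.21 to 4.94 ± 0.918 CPM (log2 -1.11, SE 0.174, adjusted p = 5.16e-06), while PTGES rose. AKR1C3, a prostaglandin F synthase with close paralogs, rose from 0.117 ± 0.122 CPM (7 counts over both DMSO libraries) to 7.4 ± 0.511 (log2 5.97, SE 0.395, adjusted p = 2.61e-12). In SKNO-1 edgeR called 0 of 6 with ATRA (1 at an unadjusted p under 0.05, 0 by DESeq2), 3 rose with Corin, and 3 rose and 1 fell with both. HPGDS, the haematopoietic prostaglandin D synthase, rose there with Corin from 0.806 ± 0.2 to 4.8 ± 0.144 CPM (log2 2.56, SE 0.2, adjusted p = 7.15e-05). Of the genes of prostaglandin breakdown and transport, 3 of 5 fell with ATRA in U-937, 1 with Corin and 3 with both, and 0 rose by edgeR, at an unadjusted p under 0.05 or by DESeq2. ABCC4, an exporter of prostaglandins, fell there with both agents from 110 ± 5.57 to 38.4 ± 3.86 CPM (log2 -1.52, SE 0.104, adjusted p = 5.07e-12). In SKNO-1, 1 of 6 fell with ATRA, 2 rose and 1 fell with Corin, and 1 rose and 2 fell with both.

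**Figure D4:**
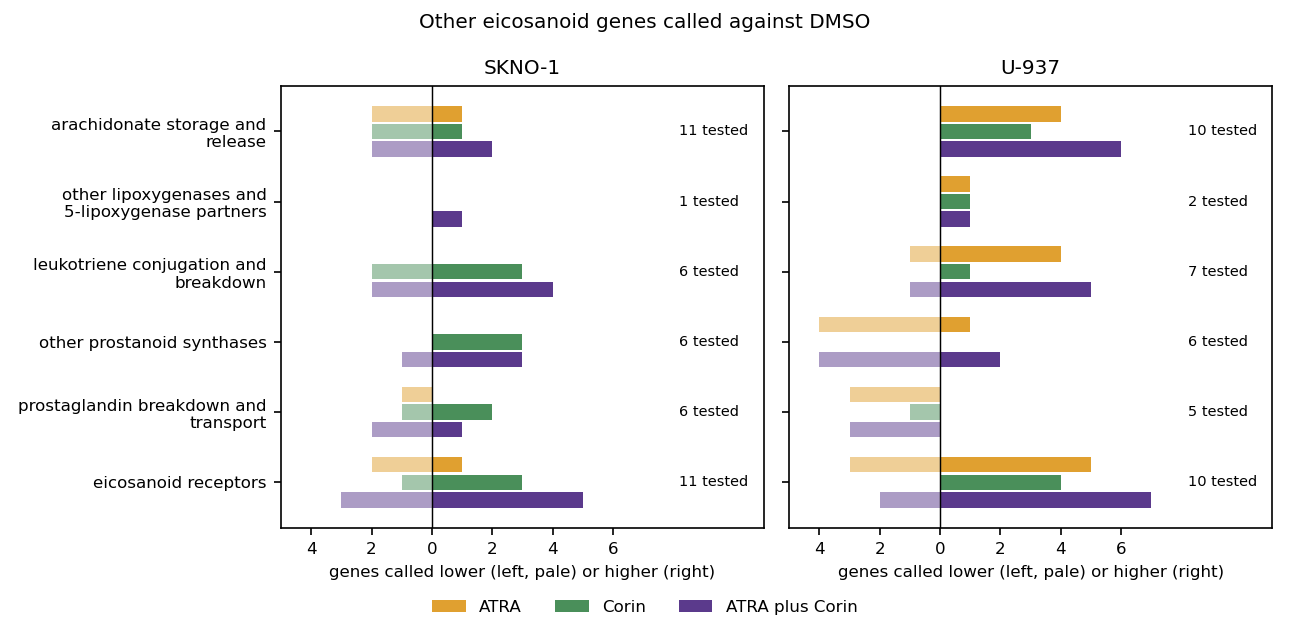
Number of genes called higher (right) or lower (left, pale) than DMSO in each of 6 lists of other eicosanoid genes, by treatment and line, with the number tested beside each list. In U-937 with both agents 6 of 10 genes of arachidonate storage and release rose (33.1% of all genes did), and 3 of 5 genes of prostaglandin breakdown and transport fell (32.2% of all genes).

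The receptors of these mediators moved in both directions. In U-937, 5 of 10 rose and 3 fell with ATRA, 4 rose with Corin, and 7 rose and 2 fell with both, with a median log2 change of 1.1 with both. In SKNO-1, 1 of 11 rose and 2 fell with ATRA, 3 rose and 1 fell with Corin, and 5 rose and 3 fell with both, with a median of 0.52. LTB4R, the high-affinity leukotriene B4 receptor, rose with ATRA from 5.26 ± 0.236 to 10.5 ± 0.475 CPM in SKNO-1 (adjusted p = 0.00238) and from 29.2 ± 0.761 to 88.5 ± 2.48 in U-937 (adjusted p = 4.14e-12). CYSLTR2, a cysteinyl leukotriene receptor, rose with both agents in U-937 from 0.278 ± 0.0388 CPM (17 counts over both DMSO libraries) to 21.9 ± 0.424 (log2 6.29, SE 0.242, adjusted p = 1.2e-16). PTGER4, a prostaglandin E2 receptor, fell with ATRA in SKNO-1 from 35.6 ± 0.602 to 24.2 ± 0.868 CPM (adjusted p = 0.00491) and rose with Corin in U-937 from 11.4 ± 0.483 to 31.8 ± 0.764 (adjusted p = 1.12e-09). Its response to ATRA was not called different between the lines (log2 0.23, SE 0.141, adjusted p = 0.306). That to Corin was larger in U-937 (log2 1.49, SE 0.137, adjusted p = 5.21e-07). PTGER2, another receptor of that prostaglandin, fell with Corin in SKNO-1 from 7.11 ± 0.257 to 2.62 ± 0.00493 CPM (log2 -1.44, SE 0.135, adjusted p = 0.000163).

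By Pearson correlation of log2(CPM + 1) over the 16 libraries, which share lines and treatments, the protein-coding genes most like ALOX5AP were NCOA3 (0.978), ARHGAP12 (0.976) and NDRG1 (0.969). Those most like PTGES were LBP (0.994), MYOM1 (0.992) and BPI (0.99), and those most like ALOX5 were KIAA0040, NFATC4 (0.998 each) and SIDT1 (0.997). For ALOX5 and PTGES these values rest largely on 1 line being near 0.

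The tested markers of monocytes and macrophages rose under every treatment except ATRA in SKNO-1, where they moved in both directions and ALOX5AP rose 7.79-fold. Of a list of 5 (CD14, CSF1R, CD68, ITGAM and FCGR1A), 4 were tested in U-937, and all 4 rose there under every treatment. The marker not tested there was CD14, with 6 counts over the DMSO group, 4 with ATRA, 8 with Corin and 14 with both. In SKNO-1 all 5 were tested and called higher with Corin and with both agents, while ATRA raised 3 and lowered 1. CD14 is among the 5 only through the combination, with 53 counts over that group, 7 with Corin and 0 with DMSO. Their summed level in U-937 was 54.8 to 55.2 CPM with DMSO, 411 to 437 with ATRA, 156 to 176 with Corin and 775 to 818 with both. In SKNO-1 it was 33.8 to 40.9, 36.0 to 36.9, 121 to 131 and 221 to 223 CPM, with CD14 at 0 with DMSO and ATRA. Of all genes tested in U-937, 21.7%, 8.55% and 33.1% rose with ATRA, Corin and both agents, and 20.1%, 4.4% and 32.2% fell. For SKNO-1 those shares were 2.96%, 20.5% and 24.7% higher, and 3.79%, 17.3% and 22.0% lower. Of 5 megakaryocyte and platelet markers, GP9 and PF4 were at 0 in all libraries, and the summed level was 0.0313 to 0.756 CPM in U-937. In SKNO-1 that sum, mostly ITGA2B, was 7.11 to 12.3 CPM with DMSO, 4.2 to 4.46 with ATRA, 35.6 to 36.0 with Corin and 32.2 to 33.3 with both. Of 8 eosinophil, basophil and mast cell markers, the summed level in U-937 was 25.8 to 30.8 CPM with DMSO, at most 12.7 with ATRA, 34.9 to 38.3 with Corin and 10.5 to 11.5 with both, with EPX and CLC at 0 throughout. Of the 3 tested there, 1 fell with ATRA, 1 rose with Corin and 3 fell with both. In SKNO-1 the sum was 85.6 to 108, 107 to 108, 61.9 to 62.1 and 36.4 to 36.5 CPM in the same order. Of the 6 tested in SKNO-1, 1 rose and 2 fell with ATRA, 2 rose and 3 fell with Corin, and 3 fell with both. The part of these markers in the results above was not tested.

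The authors' deposited tables of their own DESeq2 comparisons hold 38 pairs of a gene of the set and a comparison that were also tested here. Of the 26 pairs called here, 26 have the same sign in the authors' deposited tables and 25 are called there too, and their tables call 0 pairs that were not called here. The largest difference in log2 fold change between both sources was 0.29.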

How the data were processed

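RNA of 16 libraries was analysed. Per the labels' protocols, libraries came from a stranded total RNA kit with an ERCC spike-in, which has 0 entries in the table. The authors deposited RSEM expected counts and TPM per gene, per the file headers, and DESeq2 tables whose log2 fold changes and adjusted p-values are the authors' own. Per the submitters' processing notes Trimmomatic, STAR, RSEM and DESeq2 were used with hg38. Strand use in counting and the annotation release are not given in the sources used here, so values of overlapping, antisense and near-identical genes are uncertain. The labels name paired-end reads and the file names single-end ones, so counts may be of reads or fragments.

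Expected counts were rounded and filtered with filterByExpr in edgeR 4.0.16 (R 4.3.3), scaled by TMM and fitted per line with robust quasi-likelihood models without a replicate block (4 residual degrees of freedom), or over 16 libraries for contrasts between the lines. Biological coefficients of variation were 0.107 (SKNO-1), 0.0945 (U-937) and 0.101 (both lines). Departure from additivity is the log2 change under the combination less the ATRA and Corin changes added together. The models were tested on simulated counts with the same dispersion for every gene and no GC trend, unlike the DMSO libraries of SKNO-1. Ratios of low counts carry exact conditional intervals (scipy 1.17.1). Positions are those of GENCODE 44 on hg38, and promoters are from RefSeq. DESeq2 1.42.0 and other settings served as alternatives. The genes, the lists and the tests were chosen with earlier results of these data known. All 9 genes are named. Of each list at most 3 genes per comparison with DMSO could be named, those called with the largest log2 change and a mean of at least 1 CPM in the line, and some of these are given. Genes of like pattern are the 3 protein-coding genes closest to the 2 genes with the largest change in each line. A marker gene is not reported here, and the marker list was summed and counted without it.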

Additional observations from a re-analysis of the deposited data

Results flagged for a closer look

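In 12 cases the response of a gene differed between U-937 and SKNO-1 by edgeR's interaction test over all 16 libraries, given here as log2 differences, U-937 minus SKNO-1. For ATRA these were PTGS1 at 2.9, PTGS2 at 2.31, TBXAS1 at 0.98 and PTGES at 10.6. For Corin they were LTA4H at -0.55 and PTGS1 at -0.44. For both agents they were PTGS2 at 3.15, PTGS1 at 2.34, TBXAS1 at 1.86, ALOX5AP at 0.81, LTA4H at 0.49 and PTGES at 7.01. Of all genes tested, 10.6% were called higher and 8.8% lower for ATRA, 5.28% and 7.49% for Corin, and 17.9% and 22.7% for both agents. The Corin call of PTGS1 and both calls of PTGES were lost in some fits with 1 library left out. PTGS2 moved in opposite directions with both agents, at log2 -1.45 in SKNO-1 and 1.66 in U-937, both called. The 2 sizes for PTGES depend on how the fit treats SKNO-1 libraries at 0 counts and are no measure of the difference. The lines also differed in medium, GM-CSF being present for SKNO-1 alone, so line and medium cannot be told apart. No group had the 4 libraries needed to look for a single outlying library.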

How the results depend on the processing

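Of the 110 differences of single genes, 67 were called and 0 of those changed direction under any alternative (DESeq2's test, its size factors in edgeR, library totals, no low-count filter, replicate block, removal of a GC trend without and with the block, only the libraries compared, each library left out). Of the 67, 15 lost the call somewhere, and 9 of the others gained one. The fit with the replicate block lost 6 calls and gained 0, and it left 0 called departures from additivity in SKNO-1. Deviations of same-numbered libraries correlated at -0.496 to 0.421 between groups. In some groups they followed GC content (r = 0.784 in SKNO-1 and 0.561 in U-937 with DMSO). These correlations therefore cannot decide whether a replicate number marks a shared day or batch. With only the libraries compared, 1 gene was called for ATRA in SKNO-1 and 6 for both agents against Corin in SKNO-1, where removing the GC trend, also with the replicate block, left 1; the cause was not tested. Leaving out 1 library gave 5 to 8 called genes for both agents against DMSO in SKNO-1 (fits with a lone library in a group test more low genes, and that library is assumed to vary like the others), 1 to 7 against Corin, 0 to 3 departures in SKNO-1 and 1 to 2 differences in the Corin response. Library totals alone moved the median log2 difference of all genes from -0.01 to 0.15 for DMSO between the lines, from 0.02 to -0.11 and from 0.03 to -0.09 for both agents against Corin and DMSO in U-937, and from -0.11 to -0.26 for the combined response between the lines, and with them the DMSO difference of PTGS1 was -0.045 (adjusted p = 0.597).

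In these fits directions turned only among uncalled values; by group means of TPM, which were not tested, PTGS1 went the other way for both agents against ATRA in U-937. LTA4H changed sign in the ATRA response between lines (-0.00085 with DESeq2's size factors, -0.00083 with DESeq2, -0.082 with library totals, -0.07 to 0.014 with 1 library left out) and with ATRA in U-937 (0.025 without the GC trend, block or not). Without the GC trend PTGS1 was -0.046 for both agents against Corin in SKNO-1, and its departures were -0.068 in SKNO-1 and 0.011 in U-937 (0.012 with the block). Without the filter PTGS1 was -0.0041 for ATRA in SKNO-1 and the TBXAS1 departure there 0.025. With 1 library left out, ranges crossed 0 for ALOX5 (Corin response, -0.55 to 1.05), PTGS1 (ATRA in SKNO-1, -0.027 to 0.038; departure in U-937, -0.1 to 0.0076), PTGS2 and TBXAS1 (both against ATRA in SKNO-1, -0.14 to 0.29 and -0.0029 to 0.11) and the TBXAS1 departure in SKNO-1 (-0.05 to 0.078). The low counts of LTC4S gave -0.24 to 1.14 for both against ATRA, -0.76 to 5.14 for Corin and -4.83 to 1.07 for the departure in U-937, and between lines -1.4 to 6.65 for ATRA, -5.3 to 2.78 for Corin, -4.23 to 3.83 for both and -3.12 to 4.94 for DMSO. Those of PTGES gave -3.22 to 0 for Corin in U-937, and between lines -6.12 to 0.72 for Corin and -3.12 to 2.4 for DMSO. Depth limits LTC4S, HPGD, PTGES outside U-937 with ATRA, and ALOX5 in U-937.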
